A study of Saccharomyces cerevisiae with 2 samples.

Results

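The 10 genes described here are 9 genes of purine nucleotide synthesis (ADE1, ADE2, ADE4, ADE6, ADE8, ADE12, ADE13, ADE16 and ADE17) and BAS1, a regulator of that pathway, in budding yeast. They were taken by gene symbol from the 5449 genes of Saccharomyces cerevisiae on the array, by a rule that names no measured value but was written with earlier results of these data known. Each was read by 1 probe set with no suffix letter. The strain labelled acs2-Ts1 is set against the strain with wild-type ACS2, with 1 deposited sample each. Both are BY4741 derivatives of mating type a with his3delta1, leu2delta0, met15delta0 and ura3delta0, and in both the chromosomal ACS2 gene is replaced by a HygMX cassette. The mutant carries acs2-Ts1, a temperature-sensitive allele, on the centromeric URA3 plasmid pHT215, and its control carries wild-type ACS2 on the centromeric URA3 plasmid pHT112-1. Both were grown in YPD, a rich medium of yeast extract, peptone and glucose, and kept at 37 °C for 60 min. ACS2 encodes the acetyl-CoA synthetase that makes acetyl-CoA from acetate in the cytosol and nucleus. The titles of both samples call the strain wild type, so the groups come from the genotype field.

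Yeast builds purine nucleotides on ribose phosphate, taken from phosphoribosyl pyrophosphate (PRPP), in a chain of enzyme steps that ends at inosine monophosphate (IMP). IMP then enters a branch to AMP, through ADE12 and ADE13, or a branch to GMP. The Myb-type factor Bas1, with its homeodomain partner Pho2, activates most ADE genes when purines are short, and adenine in the medium represses them. The intermediate AICAR lies on this route and is also released by histidine synthesis, and Bas1 acts on genes of both pathways. Neither strain carries an ade mutation according to the genotype label.

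The values are linear intensities. Each deposited sample is the authors' mean of 2 arrays, normalized on controls, and single arrays were not analysed here. With 1 sample per strain there is no replicate error and no test, and every difference below is between these 2 samples. As a yardstick within the arrays, the log2 ratios of 27 hybridization controls had an SD of 0.17 around a median of -0.005. The authors' normalization on controls may itself have set these 2 values, and they hold no variation between cultures. Where 33 genes had several probe sets the pooled SD of their ratios was 0.40, and the median SD per gene was 0.17. For the median gene the log2 ratio, with acs2-Ts1 on top, was -1.12, so a difference of about 2-fold is the common case here. The deleted genes LEU2 and MET17 read 77.5 and 77.5 in acs2-Ts1, against 68.0 and 47.9 in wild type. All 20 values of the 10 genes lay above those readings. The plasmid marker URA3 read 7059 in acs2-Ts1 and 1853 in wild type, and the part of the plasmids in the differences below was not tested. No sample at a lower temperature is included, so a difference that the strains have at any temperature cannot be told apart from one that arises at 37 °C.

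All 10 genes had a lower intensity in acs2-Ts1 than in wild type, as had 86.4% of all genes. At least 2-fold lower were 5 of the 10 (ADE1, ADE4, ADE6, ADE16 and BAS1), or 50.0%, against 55.9% of all genes. At least 2-fold higher were 0 of the 10, against 3.67% of all genes. A 1.5-fold difference downward was reached by 7 of the 10, against 72% of all genes, and a 3-fold one by 0, against 25.8%. The share that was 2-fold lower is close to that of the whole genome and is therefore no result about purine synthesis. The median log2 ratio of the 10 genes was -0.97, a 1.96-fold lower level, beside -1.12 for all genes. Their log2 ratios ran from -1.42 for ADE16 to -0.42 for ADE2, with an SD of 0.36 among the genes. In the ranking of all genes from lowest to highest ratio they lay between percentile 33.8 and percentile 76.8, and 7 of the 10 fell in the interquartile range of all genes, between -1.60 and -0.48.

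**Figure D1:**
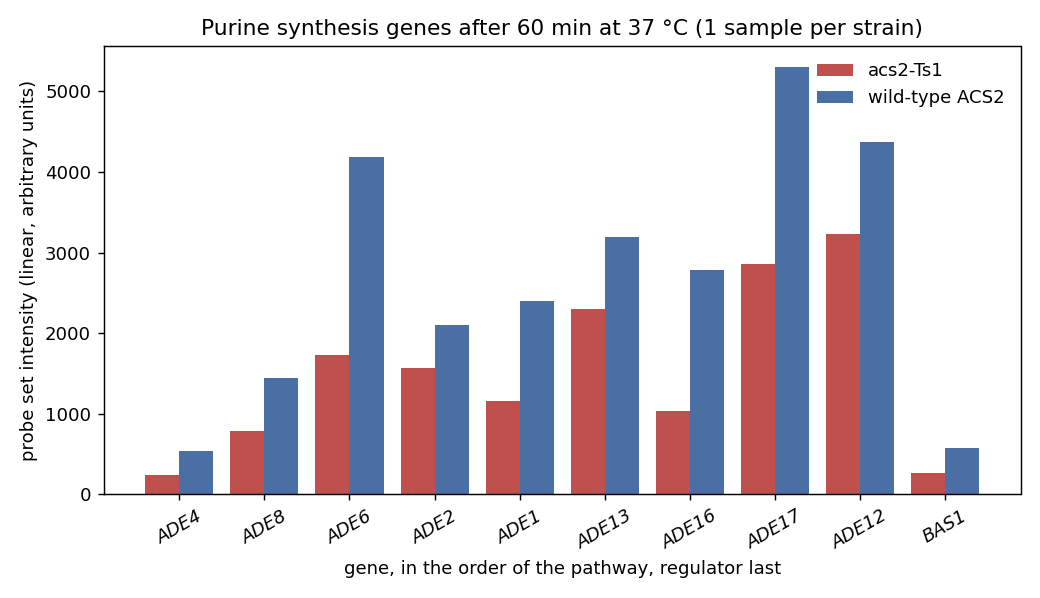
Probe set intensity (linear scale, arbitrary units) of the 10 genes in acs2-Ts1 (red, left) and wild-type ACS2 (blue, right), 1 deposited sample per strain and so without error bars. The red bar is the shorter one for each gene, by 1.34-fold for ADE2 up to 2.68-fold for ADE16. Heights of different genes are not comparable, since each comes from another probe set.

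The route to IMP starts with ADE4, which encodes the amidotransferase that commits PRPP to purine synthesis. ADE4 read 242 in acs2-Ts1 and 534 in wild type, a log2 ratio of -1.14 and a 2.20-fold lower level. Its ratio was thus nearly that of the median gene, at percentile 49.2.

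ADE8 encodes the glycinamide ribonucleotide transformylase, which adds a formyl group from folate. It read 788 in acs2-Ts1 and 1448 in wild type, 1.84-fold lower (log2 ratio -0.88). ADE6 encodes the formylglycinamidine ribonucleotide synthetase, which adds a nitrogen from glutamine. It read 1731 in acs2-Ts1 and 4183 in wild type, 2.42-fold lower (log2 ratio -1.27). These enzymes act one after the other, and only ADE6 was past 2-fold.

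ADE2 and ADE1 encode the carboxylase of aminoimidazole ribonucleotide and the SAICAR synthetase that follows it. Loss of either is known for the red pigment that accumulates in such colonies. ADE2 read 1570 in acs2-Ts1 and 2106 in wild type, 1.34-fold lower, and had the smallest difference of the 10 genes (log2 ratio -0.42, percentile 76.8). ADE1 read 1156 in acs2-Ts1 and 2399 in wild type, 2.07-fold lower (log2 ratio -1.05). Successive steps were thus read with ratios on either side of 2-fold.

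ADE16 and ADE17 encode isozymes that carry out both closing steps to IMP, the formyl transfer to AICAR and the closure of the ring. ADE16 read 1038 in acs2-Ts1 and 2781 in wild type, a log2 ratio of -1.42 and the lowest of the 10. ADE17 read 2857 in acs2-Ts1 and 5300 in wild type, a log2 ratio of -0.89. The isozyme genes were therefore 2.68-fold and 1.86-fold lower, and their log2 ratios differed by 0.53 in size. The pooled SD of 0.40 between probe sets of one gene is that of single ratios, and a difference of 2 ratios varies more. The difference was therefore not read as larger than that spread. Neither probe set has the suffix that marks possible cross-hybridization, but signal shared between these paralogues was not tested, and each has no second probe set to compare.

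ADE13 and ADE12 serve the AMP branch. ADE12 encodes adenylosuccinate synthetase, which starts it, and ADE13 encodes adenylosuccinate lyase, which ends it and also acts on the route to IMP. ADE12 read 3229 in acs2-Ts1 and 4367 in wild type, 1.35-fold lower (log2 ratio -0.44). ADE13 read 2302 in acs2-Ts1 and 3190 in wild type, 1.39-fold lower (log2 ratio -0.47). With ADE2 they are the 3 genes nearest to the wild-type level, each above the interquartile range of all genes. Of the 7 genes that serve the IMP route alone, 4 were at least 2-fold lower, against 55.9% of all genes, and the median log2 ratio was -1.05, while 0 of the 2 genes of the AMP branch were 2-fold lower and their median was -0.45. Relative to a lowess curve of the log2 ratio on level over all genes, these medians were -0.23 and 0.06.

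BAS1 read 267 in acs2-Ts1 and 572 in wild type, 2.15-fold lower (log2 ratio -1.10, percentile 51.2). PHO2, which encodes its partner, read 190 in acs2-Ts1 and 419 in wild type, 2.20-fold lower (log2 ratio -1.14). The ratios of these partners lay within 0.04 of each other and next to the all-gene median. GCN4, for the activator of amino acid synthesis whose binding motif resembles that of Bas1, read 10983 in acs2-Ts1 and 8112 in wild type, a log2 ratio of 0.44. Of the 4 regulator genes listed beside BAS1, 2 were at least 2-fold lower, against 55.9% of all genes (median -0.85). These were PHO2 and SWI5, which read 109 in acs2-Ts1 and 332 in wild type, 3.05-fold lower.

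The directions above rest on the authors' scaling to controls. Relative to the all-gene median, 7 of the 10 genes were higher and 3 were lower (ADE4, ADE6 and ADE16), the median of the 10 was 0.15, and 0 of the 10 were 2-fold away in either direction. By the same measure 6.61% of all genes lay 2-fold or more below that median and 16.4% lay 2-fold or more above it. ADE2, ADE12 and ADE13 were higher by 0.70, 0.69 and 0.65 on the log2 scale, while ADE4, ADE6, ADE1 and BAS1, at -0.01, -0.15, 0.07 and 0.02, lay nearer to the median than the SD of the hybridization controls.

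The difference between strains also varied with intensity on these arrays, being smaller for bright genes. A lowess curve of the log2 ratio on mean log2 level over all genes (span 0.30) gave -1.31 at the level of ADE4 and -0.41 at that of ADE17. Relative to this curve 5 of the 10 genes were higher and 5 lower, with a median of 0.05. ADE6 lay 0.68 below the curve, ADE16 0.61 below and ADE17 0.48 below, at percentiles 11.7, 14.4 and 20.2 of all genes. ADE2 lay 0.36 above it, and ADE12, at -0.01, lay on it. The small difference of ADE12 was thus that of genes of its level, and the ratios of ADE16 and ADE17, -0.61 and -0.48 from the curve, were closer to each other on this scale than as measured.

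**Figure D2:**
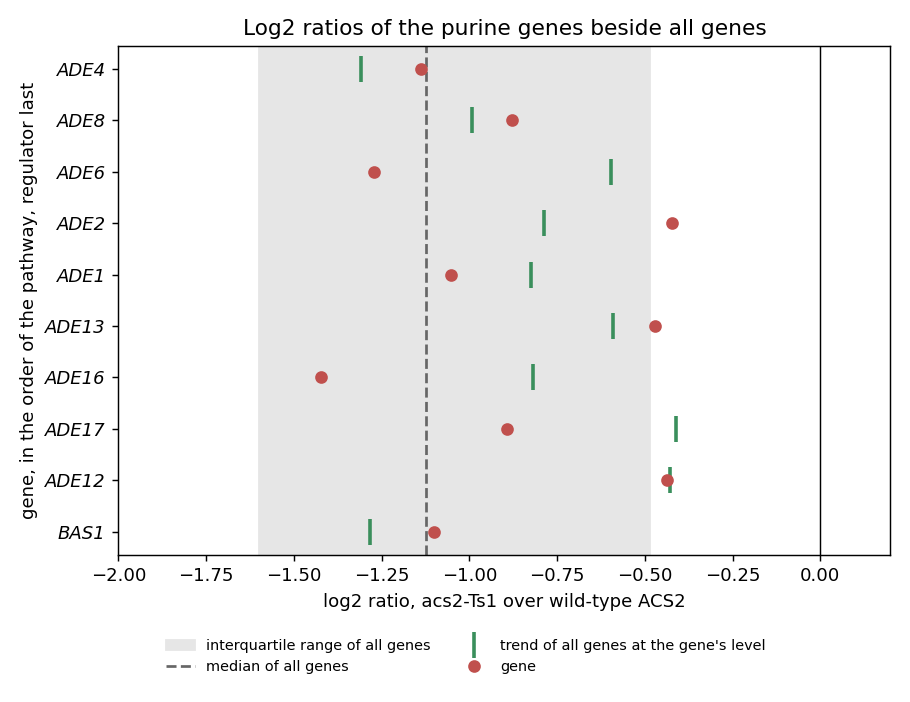
Log2 ratio (acs2-Ts1 divided by wild-type ACS2) for each of the 10 genes (red points), beside the median of all genes (dashed, -1.12), the interquartile range of all genes (grey band, -1.60 to -0.48) and the trend of all genes at the gene's own level (green marks). All points lie left of 0, those of ADE2, ADE13 and ADE12 lie right of the band, and those of ADE6, ADE16 and ADE17 lie furthest to the left of their green marks.

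Gene order in a RefSeq table of the R64 assembly was used to read the nearest measured gene on either side of each of the 10. The 20 neighbours had a median log2 ratio of -0.99, beside -1.12 for all genes. Of them, 10 were at least 2-fold lower, against 55.9% of all genes. These values are close to those of the whole genome, as are those of the 10 genes themselves. A member had the higher ratio in 11 of 20 such pairs. ADE2 stood above both its neighbours, with -0.42 beside -1.79 for RGA1 and -1.30 for AFI1. ADE16 stood below both of its own, with -1.42 beside -0.53 for AAT2 and -0.26 for RPL15A. The isozyme genes have paralogous neighbours too, since ADE16 lies next to RPL15A and ADE17 next to RPL15B, which encode copies of one ribosomal protein. RPL15B read 1253 in acs2-Ts1 and 902 in wild type, a log2 ratio of 0.48 beside the -0.89 of ADE17. Both ADE genes of these blocks thus had lower ratios than the ribosomal protein gene beside them, with differences of -1.16 and -1.37 on the log2 scale. Overlap with a neighbour's transcript was not tested.

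Genes that feed, branch from or share the regulation of the pathway were read as 9 further lists, of which 8 had measured genes. ADE5,7, the other enzyme gene of the IMP route, was not analysed here. Of 55 measured genes in these lists, 26 were at least 2-fold lower (47.3%, against 55.9% of all genes) and 0 reached 2-fold in the other direction (against 3.67%). The counts of the single lists below are to be read against the same 55.9%. Their median log2 ratio was -0.99, beside -0.97 for the 10 genes above and -1.12 for all genes. The 10 genes spanned 1.00 on the log2 scale, a narrower range than that of several of these lists.

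Of 5 synthetase genes for PRPP, the substrate of the ADE4 enzyme, 4 were at least 2-fold lower. PRS4 was 4.46-fold, PRS2 2.44-fold and PRS3 2.34-fold lower. Relative to the trend with level, PRS4, PRS2 and PRS3 lay at -1.01, 0.01 and -0.53. The median of the 5 was -1.22, which is -0.10 relative to the all-gene median, and the median relative to the trend was -0.25. One-carbon units are used by the enzymes of ADE8, ADE16 and ADE17. The 11 genes for their supply had a list median of -0.72, and of -0.20 relative to the trend with level. Of the 11 genes, 4 were at least 2-fold lower. These included FAU1, for a methenyl-tetrahydrofolate synthetase, at 232 in acs2-Ts1 and 1232 in wild type (5.30-fold lower). The mitochondrial synthase gene MIS1 (2.56-fold) and LPD1 (2.55-fold) were also among them. ADE3, the cytosolic counterpart of MIS1, read 9865 in acs2-Ts1 and 7809 in wild type, a log2 ratio of 0.34. Relative to the trend with level it lay 0.37 above, beside 0.36 for ADE2. Both genes of glutamine supply were within 2-fold.

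On the branch from IMP to GMP, 2 of 5 genes were at least 2-fold lower (median -0.99, and -0.49 relative to the trend with level). These were the IMP dehydrogenase genes IMD3 (2.90-fold) and IMD4 (2.44-fold). Their near copy IMD2 read 1751 in acs2-Ts1 and 1603 in wild type, from a probe set that may, by its suffix, cross-hybridize.

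Salvage and interconversion of purines comprised 15 genes, of which 15 were lower, against 86.4% of all genes, and 8 (53.3%) at least 2-fold lower, against 55.9% (median -1.33, and -0.58 relative to the trend with level). XPT1 and MEU1, for xanthine phosphoribosyltransferase and methylthioadenosine phosphorylase, were 3.66-fold and 3.65-fold lower. GUD1, for guanine deaminase, read 46.5 in acs2-Ts1, no brighter than the deleted gene LEU2, and 201 in wild type. GUD1 and ADK2, which read 45.0 in acs2-Ts1 and 213 in wild type, are among the 8 although their acs2-Ts1 values are this dim. Among 7 transport genes 3 were 2-fold lower, namely TPN1 (3.94-fold), FUN26 (3.47-fold) and FCY21 (2.04-fold). TPN1 is listed here although it encodes a transporter of pyridoxine, not of purines. FCY2, for the permease that imports adenine, read 3712 in acs2-Ts1 and 3800 in wild type. Of these 7, 5 were lower by any amount, against 86.4% of all genes. The other 2, AAC3 and PET9, had log2 ratios of 0.89 and 0.41. The median of the transport list was -0.74, and 0.39 relative to the trend with level.

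Histidine synthesis, which shares AICAR and BAS1 with the purine genes, was divided. HIS6, HIS2 and HIS7 were 5.42-fold, 4.20-fold and 2.45-fold lower, at 93.8, 108 and 340 in acs2-Ts1 and 508, 452 and 833 in wild type. HIS4 read 4534 in acs2-Ts1 and 2748 in wild type, a log2 ratio of 0.72. HIS1, for the entry enzyme, read 3489 in acs2-Ts1 and 3207 in wild type. HIS3, whose allele in both strains is the partial deletion his3delta1, read 882 in acs2-Ts1 and 1650 in wild type and is not in the list. The 6 histidine genes of the list spread from -2.44 to 0.72, while the 9 ADE genes all lay between -1.42 and -0.42. The histidine list had a median of -0.74, and of 0.25 relative to the trend with level. HIS1, HIS4, FCY2, IMD2, AAC3, PET9 and ADK2 were named after their values were seen.

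**Figure D3:**
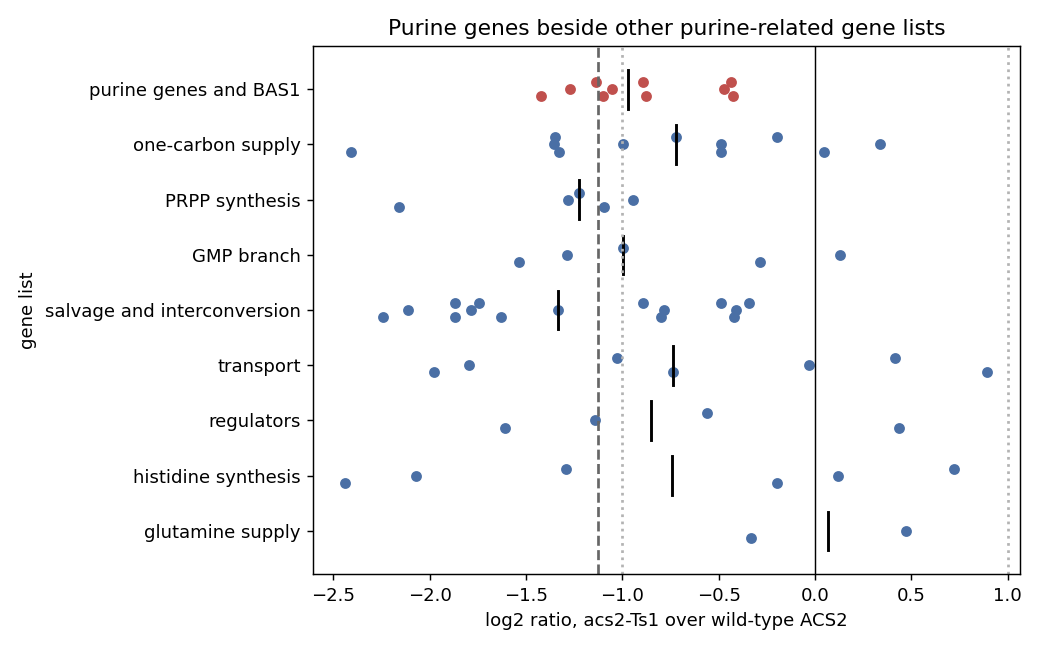
Log2 ratio (acs2-Ts1 divided by wild-type ACS2) for each measured gene of the purine list (red) and of 8 related lists (blue), with the list median as a black bar, the all-gene median as a dashed line and 2-fold differences as dotted lines. The red points lie between -1.42 and -0.42. Those of PRPP synthesis and of salvage and interconversion also lie wholly below 0, while the points of every other related list extend on both sides of it.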

How the data were processed

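Total RNA was labelled with biotin and hybridized to Affymetrix arrays. The deposited values are intensities on a linear scale. Per the labels, the authors background-corrected 4 arrays, averaged the 2 of each strain and normalized the means on controls with a lowess curve. The submitters' processing notes name RMA, without a version. An error in that scaling would move many genes of a sample together, to a degree that may differ with intensity. The number of arrays limits the precision.

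Of 10928 probe sets, 5498 matched a gene through the platform annotation and a RefSeq table (R64). Each gene is represented by its brightest probe set that has no suffix letter or, where it has none such (IMD2 among the genes named), by its brightest one. Background is the 95th percentile of 1746 probe sets for genes outside the species (46.3 in acs2-Ts1, 49.1 in wild type), and a gene with a value under it, or no brighter than the deleted genes LEU2 and MET17, gets no fold. Such genes stay in the counts and medians. Log2 ratios have no pseudocount, and there is no test. All 10 members are named, with up to 3 genes per end of each list past 2-fold, and PHO2, GCN4, ADE3 and ADE5,7 in every case. Members and lists were chosen with earlier results of these data known. Promoter motifs and protein identity were planned but not analysed here. Python 3.11.15, pandas 2.3.3 and statsmodels 0.14.6 were used.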

Additional observations from a re-analysis of the deposited data

How the results depend on the processing

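Averaging all probe sets of a gene could change nothing here, since each of the 10 genes has 1 probe set. Centring on hybridization controls, whose median log2 ratio was -0.005, could move each ratio by only that amount. That median may itself have been set by the authors' normalization on controls. Adding 32 to both values and subtracting the median background kept every log2 ratio of the 10 genes within the pooled SD of probe sets of one gene. In each of these settings the count of 2-fold lower genes was 5 of the 10. Of all genes, 56.0% were 2-fold lower with probe sets averaged and 55.8% with control centring. The share was 50.0% with 32 added and 58.8% with background subtracted. Leaving out genes under the 25th percentile of level also gave 5, against 54.7% of the genes kept. A 1.5-fold threshold gave 7, against 72% of all genes. A 3-fold threshold gave 0, against 25.8% of all genes. Centring on the all-gene median assumes no global shift and moved all genes by the same amount. The count then was 0 and the median of the 10 genes 0.15. Of the 10, 7 turned positive, namely ADE2 (0.70), ADE12 (0.69), ADE13 (0.65), ADE8 (0.25), ADE17 (0.23), ADE1 (0.071) and BAS1 (0.022). The related lists then had 4 of 55 genes 2-fold lower and 10 higher, against 6.61% of all genes lower and 16.4% higher. With the trend with level removed the count was 0 in either direction, against 4.06% of all genes lower and 12.3% higher. The median was 0.054, and 5 turned positive, namely ADE2 (0.36), BAS1 (0.18), ADE4 (0.17), ADE13 (0.12) and ADE8 (0.12). The difference of ADE16 from ADE17 was -0.12 in place of -0.53. In the related lists 3 of 55 genes were then 2-fold lower and 2 higher, to be read against those same shares of all genes. ADE16 and ADE17 have 1 probe set each, so reading them by single probe sets gave no other value, and the motif alternatives were not run. No paired analysis was possible because each strain has 1 deposited sample. The number of arrays limits all values, and no spread between cultures can be given.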
